A study of Mus musculus with 3 samples.

Results

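Csf1r, which encodes the receptor of colony-stimulating factor 1, and Csf1 and Il34, which encode the ligands of that receptor, were followed across the cells of a single-cell RNA sequencing experiment on mouse brain. The members were the rows of the gene table with these symbols, 3 of 31053 genes. The experiment held 3 samples of brain tissue from C56BL6 mice aged 10 weeks: control, ischemic stroke and hemorrhagic stroke. According to the methods, tissue of 8 mice went into each condition, ischemia came from a suture that closes the middle cerebral artery, and hemorrhage came from collagenase IV injected into the striatum. Tissue was dissociated with a kit for adult brain, so the libraries hold the cells that survive dissociation. The counts were deposited as 1 matrix in which the libraries are told apart by the number that ends each cell barcode (suffix 1, 2 or 3), and no label ties a suffix to a condition. Values are therefore given by suffix. With 1 library per condition no test between libraries was possible, and intervals (95%, exact Poisson for levels and exact Clopper-Pearson for shares) cover counting error only.

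Csf1r is a receptor tyrosine kinase of the mononuclear phagocyte lineage, and microglia depend on its signalling for survival and division. Colony-stimulating factor 1 is made by many cell types as secreted and membrane-bound forms, whereas interleukin-34, which shares no obvious sequence similarity with it, binds the same receptor and is known in the brain mainly from neurons. Microglia are the resident phagocytes of the brain parenchyma, and border-associated macrophages lie along vessels, meninges and choroid plexus.

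A level is given as CPM, the unique molecular identifiers (UMIs, 1 per captured transcript molecule) of a gene per 1000000 UMIs of the cells named. Since the libraries read the 3′ ends of transcripts, CPM was compared between cells and not between genes. Barcodes with at least 1000 UMIs and at most 30% mitochondrial UMIs were kept, 31982 of 35968, with library medians of 5801 to 6389 UMIs. Cells were placed in 19 classes, named "-like", when at least 4 of the 6 to 8 markers of a class had a UMI. None of the 3 genes was a marker. Of the kept barcodes, 2655 passed the gates of more than 1 lineage, or tied between classes of 1 lineage, and were called mixed. Another 2606 passed none. Barcodes past several gates of 1 lineage without a tie went to the class with the largest share of its markers found. The library of suffix 3 stood apart in composition. It held 878 of 898 endothelial cell-like, 149 of 165 mural cell-like and 129 of 147 border-associated macrophage-like cells, but 22 of 2414 T cell-like cells. Of the kept barcodes, 180 carried a sequence that also occurred in another library.

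Csf1r (ENSMUSG00000024621) lies on the plus strand of chromosome 18 from 61100598 to 61132149 in GRCm38, Csf1 (ENSMUSG00000014599) on the minus strand of chromosome 3 from 107741048 to 107760469, and Il34 (ENSMUSG00000031750) on the minus strand of chromosome 8 from 110741829 to 110805924. Csf1 overlaps no other annotated gene. Csf1r overlaps Hmgxb3 on the opposite strand, and Il34 overlaps the antisense genes Gm15894 and Gm15895. Csf1r also contains the microRNA gene Mir6983 on its own strand. The sources used here do not say whether counting used strand, so reads of the opposite pairs could have been shared. The partners had few UMIs where the members were high: Hmgxb3 had 518 in microglia-like cells against 93699 of Csf1r, and the antisense genes had 1 and 0 in mural cell-like cells against 127 of Il34.

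Csf1r transcripts were concentrated in microglia-like and border-associated macrophage-like cells. Microglia-like cells held 1014 CPM (1008 to 1021), with a UMI in 97.1% of 10186 cells, and border-associated macrophage-like cells held 1076 CPM (1011 to 1144), with a UMI in 92.5% of 147 cells. Neutrophil-like cells came next at 68.1 CPM (53.7 to 85.1), with a UMI in 20.5% of 303 cells. The other 11 classes with at least 50 cells lay between 7.97 CPM in choroid plexus cell-like and 20.6 CPM in oligodendrocyte precursor-like cells. Neighbours in this order had overlapping intervals from the fourth place down, while the gap between macrophage classes and neutrophil-like cells was far outside them. Among smaller classes, 27 monocyte-like cells held 164 CPM (126 to 212), and 7 dendritic cell-like cells held no Csf1r UMI, which allows up to 46.6 CPM.

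**Figure D1:**
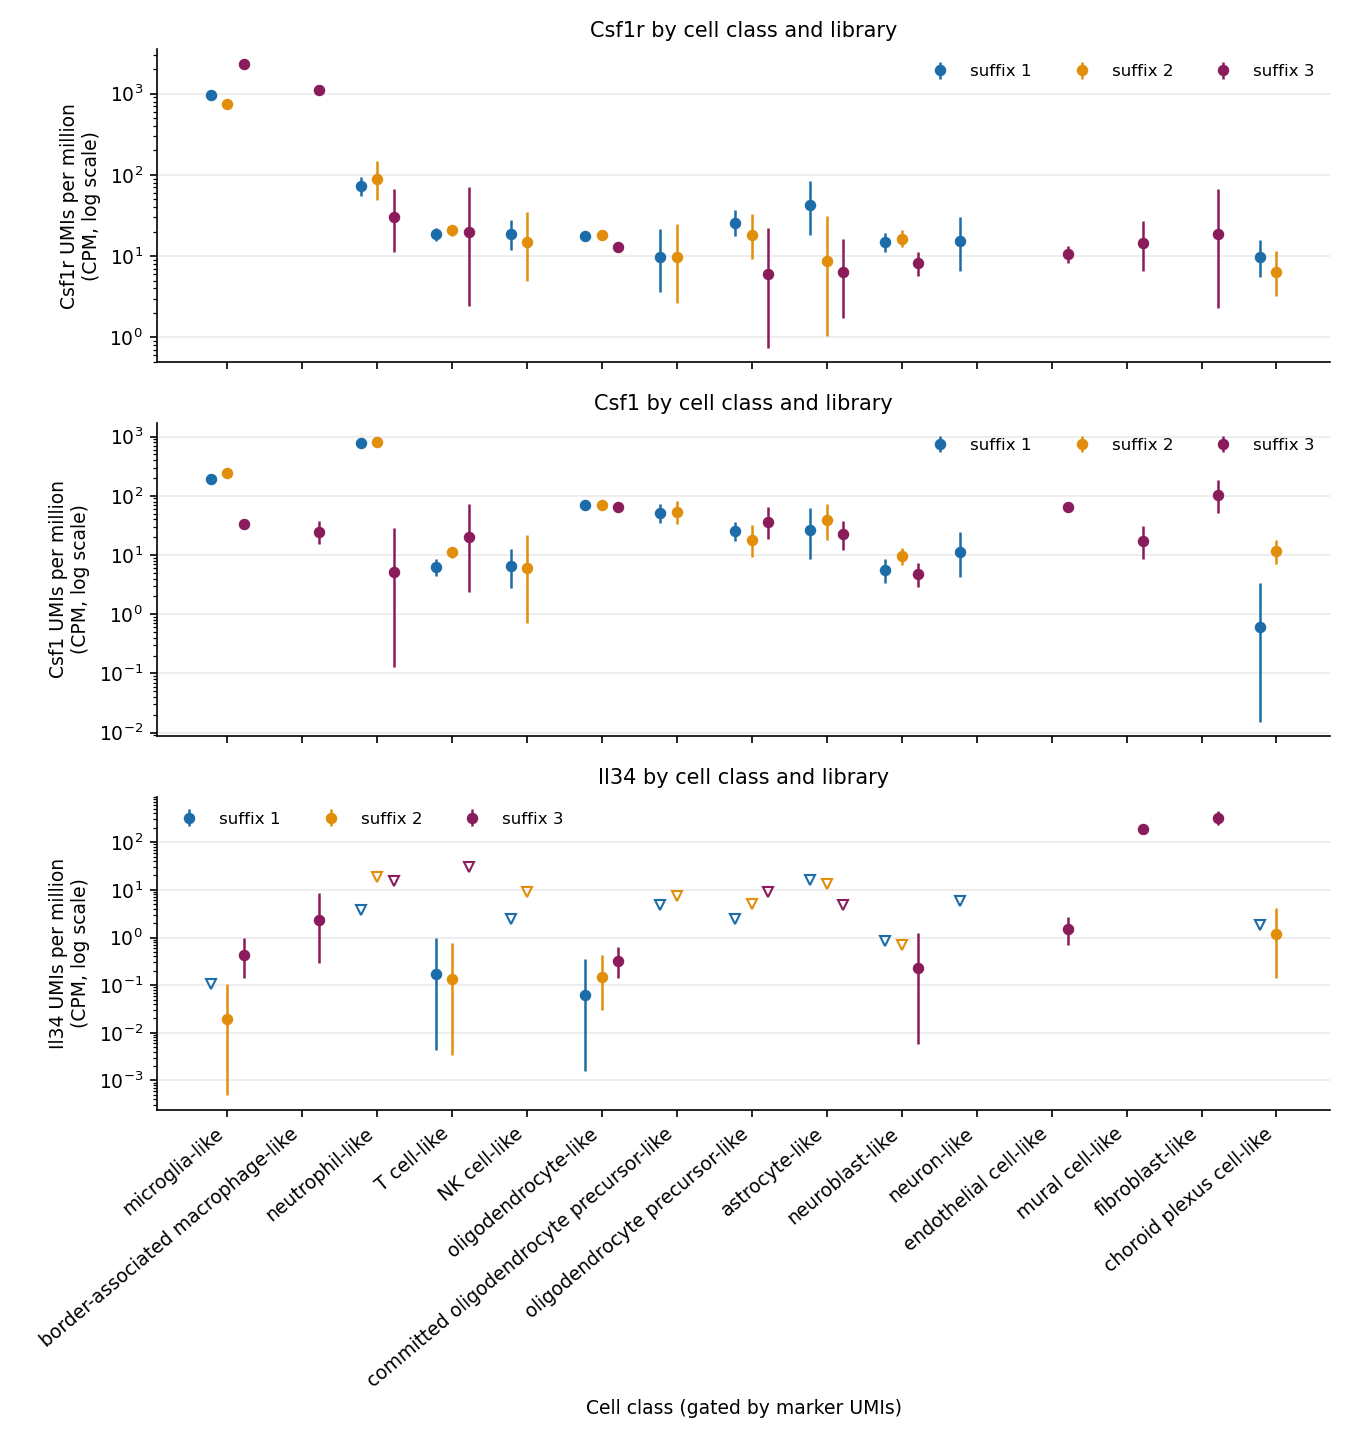
CPM (log axis) of Csf1r, Csf1 and Il34 in each cell class, with 1 point per library that has at least 20 cells of the class (at least 10 for fibroblast-like cells) and bars for exact Poisson 95% intervals. Open triangles mark classes with no UMI, at the level that a count of 0 allows (3 UMIs). Csf1r stands highest in the macrophage classes, Csf1 in neutrophil-like and microglia-like cells of suffixes 1 and 2, and Il34 in mural cell-like and fibroblast-like cells.

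By library, Csf1r in microglia-like cells was 957 CPM in suffix 1 (945 to 968, 3063 cells), 750.2 CPM in suffix 2 (743 to 758, 5334 cells) and 2329 CPM in suffix 3 (2301 to 2357, 1789 cells). The microglia-like cells of suffix 3 thus held 2.43 times the level of suffix 1 (2.39 to 2.47) and 3.104 times that of suffix 2 (3.06 to 3.15). The median cell held 8, 6 and 15 Csf1r UMIs, although suffix 3 was the shallowest, with median depths of 7655, 8254 and 6403 UMIs. Thinned to 2000 UMIs per cell, which left out 207, 249 and 132 shallower cells, the medians were 2, 1 and 4. At least 10 Csf1r UMIs were found in 41.1%, 28.1% and 73.6% of the cells. The share of cells with any Csf1r UMI was nearly level in the full counts, at 97.2%, 96.5% and 98.7%, and the libraries parted in amount.

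The pooled order of the macrophage classes turned on the library. Pooled, border-associated macrophage-like cells stood slightly above microglia-like cells, with overlapping intervals. In suffix 3, which held nearly all of them, their 129 cells had 1099 CPM (1029 to 1172), under the 2329 CPM of microglia-like cells of the same library. Their levels in the other libraries, 898 CPM from 10 cells and 819 CPM from 8 cells, had intervals that met those of microglia-like cells there.

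Outside the macrophage classes, the Csf1r UMIs were set beside those of C1qa, C1qb and C1qc, complement genes that microglia express in abundance and that were in no gate. Free RNA that leaks from microglia into other droplets carries these genes in 1 ratio. Microglia-like cells had 37.5, 26.8 and 94.4 Csf1r UMIs per 1000 C1q UMIs in suffixes 1, 2 and 3. Oligodendrocyte-like cells had 43.9, 25.5 and 94.6, moving with their own library, with suffix 1 somewhat above its microglia-like ratio, at 1.17 times (1.04 to 1.32). Over the 3 libraries, the observed Csf1r UMIs were 1.02 times those at the microglia-like ratio in oligodendrocyte-like cells (0.960 to 1.09), 1.06 times in T cell-like (0.932 to 1.19), 0.886 times in neuroblast-like (0.754 to 1.03) and 1.13 times in endothelial cell-like cells (0.885 to 1.42). The Csf1r UMIs of these classes, found in 6.35% to 8.99% of their cells, were thus near the number at the microglia-like ratio, with pooled intervals that included 1. Barcodes that also held microglia would give the same ratio as free RNA, so the source of these UMIs was not tested. With mixed barcodes given to the class with most markers, Csf1r was 47.9 CPM in oligodendrocyte-like and 36.3 CPM in T cell-like cells. Neutrophil-like cells were above the microglia-like ratio, at 2.40 times (1.90 to 3.004), with 2.74 times in suffix 1, 2.66 times in suffix 2 and 1.01 times (0.370 to 2.20) in the 26 cells of suffix 3. The 54 neuron-like cells also lay above, at 2.26 times, but with 10 UMIs and an interval from 1.08 to 4.15.

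**Figure D2:**
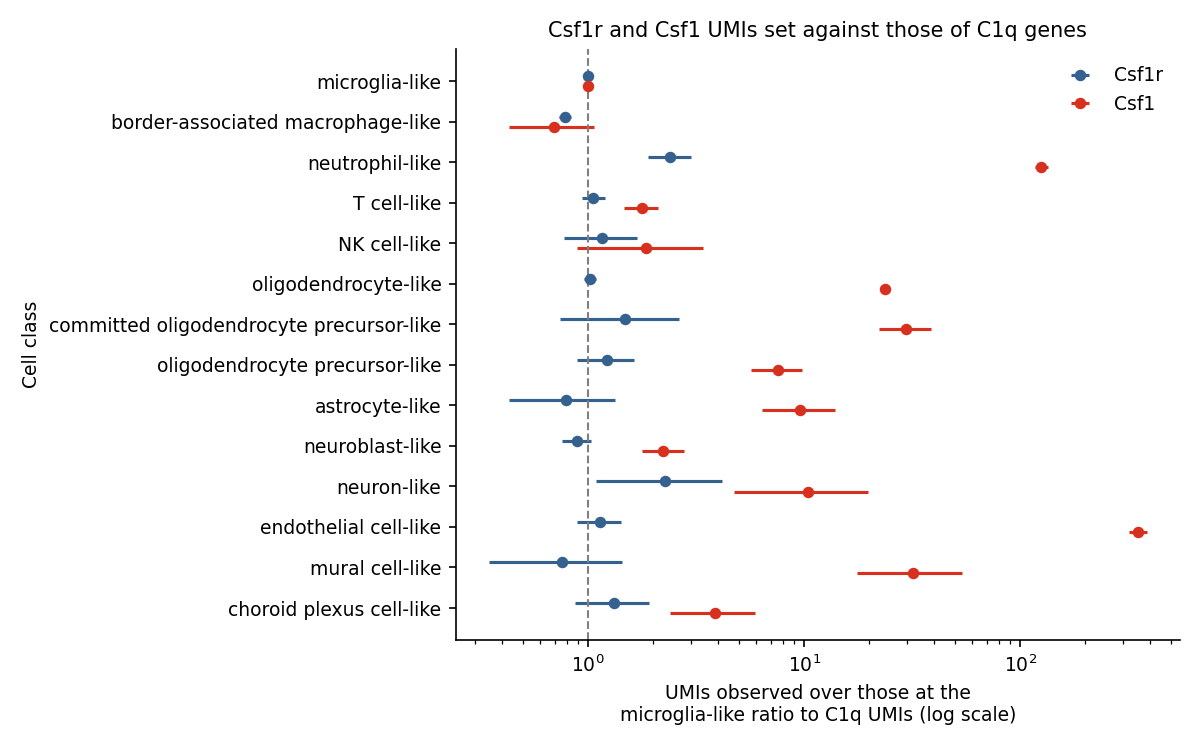
UMIs of Csf1r and Csf1 in each cell class divided by the number they would have at the ratio to C1qa, C1qb and C1qc seen in microglia-like cells of the same library (log axis), summed over the libraries, with exact Poisson 95% intervals and a dashed line at 1. The interval of Csf1r includes 1 in all classes plotted but neutrophil-like and neuron-like cells, which lie above, and border-associated macrophage-like cells, at 0.782, whereas Csf1 lies far above 1 in neutrophil-like, oligodendrocyte-like and endothelial cell-like cells.

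Of the 114945 Csf1r UMIs in kept barcodes, 81.5% lay in microglia-like cells, 14.2% in mixed barcodes and 1.91% in barcodes that passed no gate. Barcodes that passed the microglia gate, alone or with others, held 95.8%. By library, microglia-like cells held 86.3%, 85.5% and 72.6% and mixed barcodes 9.22%, 10.3% and 23.1%. The largest mixed group joined microglia and oligodendrocyte markers, with 918 barcodes, a median of 10510 UMIs and 9929 Csf1r UMIs. Border-associated macrophage-like cells held 2.48% of the Csf1r UMIs of suffix 3.

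Csf1 had a different order, given first over the pooled libraries. Neutrophil-like cells held 658 CPM (611 to 707), with a UMI in 55.4% of cells at a median of 2953 UMIs, and microglia-like cells held 198 CPM (195 to 201), with a UMI in 42.1%. Oligodendrocyte-like cells, at 68.7 CPM (66.6 to 70.8), and endothelial cell-like cells, at 65.5 CPM (59.5 to 71.8), did not differ beyond their intervals. Committed oligodendrocyte precursor-like cells, which are precursors that have begun to mature, followed at 47.7 CPM (35.9 to 62.3). Astrocyte-like, oligodendrocyte precursor-like, border-associated macrophage-like and mural cell-like cells lay between 19.3 and 26.8 CPM, with overlapping intervals. The lowest levels, 6.20 to 9.05 CPM, were in choroid plexus cell-like, NK cell-like, neuroblast-like and T cell-like cells, where a Csf1 UMI was found in 3.67% to 6.48% of the cells. Their median depths were 4755 to 13385 UMIs. In choroid plexus cell-like cells it was 0.606 CPM in suffix 1 and 11.6 CPM in suffix 2. The 54 neuron-like cells held 11.4 CPM from 9 UMIs. The 23 fibroblast-like cells held 104 CPM (55.2 to 177). This order turned in suffix 3, where oligodendrocyte-like cells, at 65.7 CPM, and endothelial cell-like cells, at 65.0 CPM, stood above microglia-like cells, at 33.8 CPM, and neutrophil-like cells, at 5.10 CPM.

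In the classes with most Csf1 outside microglia-like cells, its UMIs were far more than C1q UMIs carry along. The observed number was 125 times that at the microglia-like ratio to C1q in neutrophil-like cells (117 to 135), 23.6 times in oligodendrocyte-like cells (22.9 to 24.4) and 352 times in endothelial cell-like cells (320.1 to 386). These pooled factors turn on library makeup, since microglia-like cells had 7.493, 8.535 and 1.368 Csf1 UMIs per 1000 C1q UMIs in suffixes 1, 2 and 3. By suffix, oligodendrocyte-like cells were at 23.8, 11.5 and 348 times, and endothelial cell-like cells of suffix 3 at 478.5 times. Neutrophil-like cells were at 147, 77.3 and 11.6 times, with an interval in suffix 3 that included 1 (0.294 to 64.6). In the classes with the lowest Csf1 it was 1.77 times in T cell-like (1.46 to 2.11), 2.23 times in neuroblast-like (1.77 to 2.77), 3.88 times in choroid plexus cell-like (2.40 to 5.93) and 1.85 times in NK cell-like cells (0.888 to 3.41), of which the interval of the last included 1. Free RNA of other Csf1-rich classes was not part of this measure, so whether the low Csf1 of these classes was background was not settled by it. Border-associated macrophage-like cells were at 0.698 times pooled (0.432 to 1.07) and 1.17 times in suffix 3 (0.724 to 1.79). In suffix 3 they held 102 C1q UMIs per cell, against 0.936 in oligodendrocyte-like cells, so the ratio is no measure of free RNA in them.

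In neutrophil-like cells, Csf1 was 788 CPM in suffix 1 (727 to 853, 216 cells) and 824 CPM in suffix 2 (689 to 979, 61 cells). In suffix 3 it was 5.10 CPM (0.129 to 28.4), from 1 UMI in 26 cells. The neutrophil-like cells of suffix 3 were deeper, with a median of 5841 UMIs against 3010 and 2431. The shares of cells with a Csf1 UMI were 60.2%, 60.7% and 3.85%. Csf1 was unevenly spread within the class: the 30 cells with most Csf1 UMIs, of 303, held 50.3% of them, and the highest cell had 29. Without suffix 1 the class level was 370.4 CPM.

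In microglia-like cells, Csf1 was 191 CPM in suffix 1 (186 to 196), 239 CPM in suffix 2 (235 to 244) and 33.8 CPM in suffix 3 (30.5 to 37.3). Suffix 3 was lower than suffix 1 by a factor of 5.66 (5.11 to 6.27) and lower than suffix 2 by a factor of 7.09 (6.41 to 7.83), the opposite of Csf1r. A Csf1 UMI was found in 43.0%, 51.3% and 13.2% of the cells. The distribution had a long tail, since the 306, 533 and 179 cells with most Csf1 UMIs, about 10% of each library, held 63.5%, 55.9% and 85.3% of these UMIs. Cells with at least 10 Csf1 UMIs made up 4.90% of microglia-like cells in suffix 1, 6.47% in suffix 2 and 0.112% in suffix 3. After thinning to 2000 UMIs, receptor and ligand were found in the same cell in 17.2%, 17.3% and 5.19% of the cells, against 42.0%, 49.9% and 13.1% in the full counts.

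These library gaps were read against all genes. Of 6344 genes with at least 10 CPM in microglia-like cells, suffix 3 lay above both other libraries in 73.6% and below both in 20.8%. On the scale of log2(CPM + 10), the median gene was 0.34 higher in suffix 3 than in the mean of suffixes 1 and 2. The added 10 CPM shrinks differences most for genes of low level, among them Csf1 in suffix 3. Csf1r was 1.44 higher on that scale and stood at rank 91 from the top. Csf1, at -2.36, stood at rank 41 from the bottom. Being above both libraries was thus common for a gene, and a difference as large as that of Csf1r or Csf1 was not.

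In oligodendrocyte-like cells, the myelinating glia, Csf1 hardly moved with the library. It was 70.9 CPM in suffix 1 (66.8 to 75.1, 2154 cells), 70.5 CPM in suffix 2 (66.9 to 74.2, 3442 cells) and 65.7 CPM in suffix 3 (62.6 to 69.0, 3671 cells). A UMI was found in 33.4%, 28.4% and 31.3% of the cells, and 1 of 9267 cells had 10 or more. Within the class, cells with a Klk6 UMI and no Il33 UMI held 97.0 CPM (90.1 to 104, 854 cells), cells with Il33 and no Klk6 held 57.1 CPM (54.7 to 59.6, 5829 cells), cells with both held 94.0 CPM (88.0 to 100.2, 1063 cells) and cells with neither held 62.5 CPM (56.8 to 68.7, 1521 cells). Klk6 encodes a secreted serine protease and Il33 an alarmin cytokine, and both mark subsets of mature oligodendrocytes. The cells with Klk6 and no Il33 were above those with Il33 and no Klk6 in each library, at 106 against 54.2 CPM, 90.9 against 58.2 CPM and 93.9 against 57.8 CPM. This split was chosen after its values were seen. Pooled median depths were 8964.5 UMIs with Klk6 alone, 6096 with Il33 alone, 8370 with both and 3187 with neither, and no comparison at equal depth was made.

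In endothelial cell-like cells, Csf1 was 65.0 CPM in suffix 3 (59.1 to 71.4), the only library with more than 20 of these cells. It sat in few of them: a UMI was found in 20.5% of the 878 cells, and the 88 cells with most held 79.1% of the UMIs. Without suffix 3 the level was 99.0 CPM (45.3 to 188), from 20 cells, and the 7 UMIs of suffix 2 all lay in 1 cell. Thinned to 1000 UMIs per barcode, so that deep cells weigh no more than others, endothelial Csf1 was 40.1 CPM, under the 64.8 CPM of oligodendrocyte-like cells. With equal library weights it was 137 CPM, a value that includes 262 CPM from 2 UMIs in the 2 cells of suffix 1.

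As sources, microglia-like cells held 63.2% of the 28991 Csf1 UMIs, oligodendrocyte-like cells 14.5% and mixed barcodes 11.9%. Barcodes that passed no gate held 4.71%, neutrophil-like cells 2.57% and endothelial cell-like cells 1.55%. The makeup differed by library. Microglia-like cells held 62.7% in suffix 1, 73.9% in suffix 2 and 11.6% in suffix 3, where oligodendrocyte-like cells held 48.0% and endothelial cell-like cells 12.9%. Neutrophil-like cells held 6.96% of the Csf1 UMIs of suffix 1 from 2.41% of its kept barcodes. These shares move with how many cells of a class were captured as well as with the level per cell. Over all kept barcodes, Csf1 was 123, 160.0 and 50.5 CPM, and Csf1r 449, 434 and 554 CPM.

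**Figure D3:**
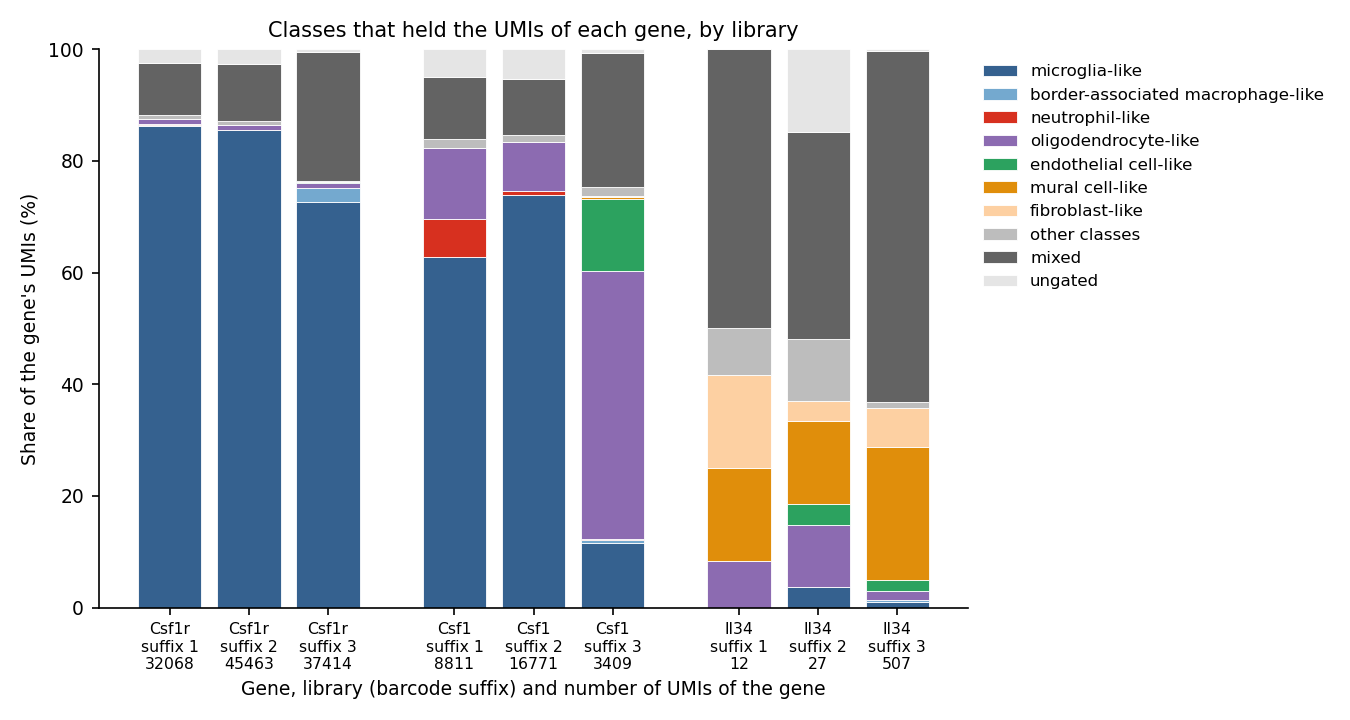
Share of the UMIs of Csf1r, Csf1 and Il34 (%) held by each cell class in each library, as stacked bars that sum to 100%, with the number of UMIs of the gene under each bar. Csf1r comes mostly from microglia-like cells in each library, Csf1 shifts from microglia-like cells in suffixes 1 and 2 to oligodendrocyte-like cells in suffix 3, and Il34 rests on 12 and 27 UMIs outside suffix 3.

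Among microglia-like cells of suffixes 1 and 2, Csf1r and Csf1 ran in opposite directions, as a fraction of all UMIs, along an activation list of 7 genes. The list (Cst7, Spp1, Lpl, Itgax, Gpnmb, Axl and Fabp5) is typical of phagocytic and disease-associated microglia. Cells were thinned to 2000 UMIs and ranged by how many of the 7 genes had a UMI, and levels were then taken from their full counts. These are ranges of a score, not cell types. In suffix 1, Csf1r was 1455 CPM at 0 genes, 1285 at 1, 959 at 2, 679.8 at 3 and 576 at 4 to 7. In suffix 2 it was 1332, 1092, 796, 604 and 507 CPM. Each step was outside the intervals of its neighbours in both libraries. Csf1 went from 90.8 CPM at 0 genes through 130.1, 179 and 242 to 275 CPM at 4 to 7 in suffix 1, and from 82.9 CPM through 114, 188 and 279.7 to 339.8 CPM in suffix 2. At 4 to 7 genes Csf1r was thus 0.396 and 0.381 times its level at 0 genes, and Csf1 3.02 and 4.10 times. Suffix 3 showed no such step between 0 genes (1472 cells) and 1 gene (176 cells). There Csf1r was 2340 CPM (2310 to 2370) and 2292 CPM (2206 to 2379), and Csf1 33.2 CPM (29.8 to 36.9) and 33.6 CPM (24.0 to 45.8). Its range of 2 genes held 9 cells, at 1694 CPM of Csf1r (1411 to 2017) and 80.7 CPM of Csf1 (29.6 to 176) from 6 UMIs. The ranges also rest on unlike genes. In full counts the list gene found most often was Fabp5 in suffix 3, in 19.2% of cells. In suffixes 1 and 2 it was Spp1, in 74.1% and 87.8%.

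Depth moved with these ranges, from a median of 6089 UMIs at 0 genes to 16478 at 4 to 7 genes in suffix 1, and from 5562 to 14532 in suffix 2. Counted per cell, Csf1r was nearly level, at 9.86 UMIs per cell at 0 genes and 9.30 at 4 to 7 in suffix 1, and 8.01 and 7.72 in suffix 2. Csf1 went from 0.615 to 4.43 UMIs per cell and from 0.498 to 5.17. Among cells of 5000 to 10000 UMIs alone, a range chosen after the values were seen, Csf1r at 4 to 7 genes was 0.486 times its level at 0 genes in suffix 1 (59 cells) and 0.457 times in suffix 2 (202 cells). Csf1 was 3.02 and 4.92 times. Between 0 genes and 4 to 7 genes, both directions were kept in these cells of like depth. The single steps were not all kept. Csf1r in suffix 1 was 829.9 CPM (764.1 to 899.8) at 3 genes and 746.3 CPM (667.4 to 831.8) at 4 to 7. Its intervals also overlapped between 0 genes and 1 gene in suffix 1, and between 3 and 4 to 7 genes in suffix 2. Csf1 in suffix 1 was 368 CPM (324 to 415) at 3 genes and 272 CPM (226 to 326) at 4 to 7. In suffix 2 it was 94.5 CPM at 0 genes and 97.8 CPM (87.9 to 108) at 1.

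**Figure D4:**
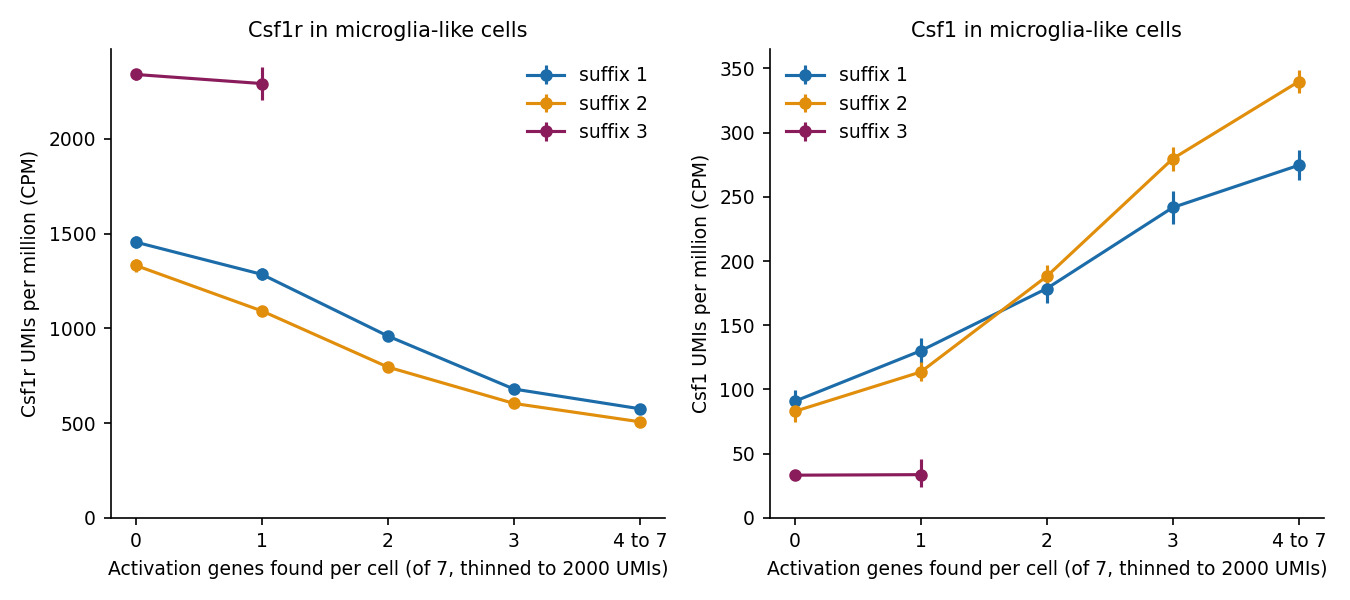
CPM of Csf1r (left) and Csf1 (right) in microglia-like cells by the number of 7 activation genes found after thinning to 2000 UMIs per cell, for each library, with exact Poisson 95% intervals and only ranges with at least 20 cells. Csf1r is lower and Csf1 higher at more activation genes in suffixes 1 and 2, and suffix 3, with cells at 0 and 1 genes, lies above them for Csf1r and below them for Csf1.

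The libraries held these ranges in unequal parts. In suffix 3, 88.8% of microglia-like cells had none of the 7 genes, against 26.0% in suffix 1 and 13.1% in suffix 2. Spp1, a secreted phosphoprotein, was 7679 CPM in suffix 1 and 4.28 CPM in suffix 3, and Cst7, a cysteine protease inhibitor, was 984 and 5.91 CPM. Among cells with 0 activation genes, Csf1r was 1455, 1332 and 2340 CPM and Csf1 90.8, 82.9 and 33.2 CPM in suffixes 1, 2 and 3. In these cells too, suffix 3 was above both other libraries for Csf1r and below both for Csf1. The part of the activation ranges in the library gaps was not tested, nor was that of other differences between these libraries.

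Of 13 stress and immediate early genes, which respond to tissue dissociation, 12 were highest in suffix 3 in microglia-like cells, beside 73.6% of all genes. Jun was 3194, 3578 and 9052 CPM, and Hspa1a, a heat shock protein gene, 782, 1173 and 2917 CPM, while Nfkbia was highest in suffix 2. The part of this list in the library gap was not tested. At least 11 of the 13 genes were found in 44.9%, 54.8% and 81.2% of thinned microglia-like cells. With 0 activation genes and 11 to 13 stress genes, Csf1r was 1481, 1337 and 2356 CPM. With 0 activation genes and 5 to 8 stress genes it was 1336, 1166 and 2240 CPM, from 58, 37 and 52 cells. Suffix 3 was the highest in each of these ranges. The ranges count the stress genes found, so their amounts were not matched between libraries. Within suffixes 1 and 2 pooled over activation, Csf1r was lower in cells with 0 to 4 stress genes, at 687 and 573 CPM, than in cells with 11 to 13, at 1195 and 864 CPM.

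Of 6 division genes, at least 2 were found in 19, 58 and 5 microglia-like cells. Csf1r there was 566 CPM in suffix 1, 586 CPM in suffix 2 and 1496 CPM in suffix 3, against 957, 753 and 2331 CPM in cells with none. Counted per cell, the order was the other way, with 10.5, 10.4 and 19.2 Csf1r UMIs per cell against 9.53, 7.501 and 16.1. These cells were deep, with medians of 15378, 17501 and 13843 UMIs, and no comparison at equal depth was made. Csf1 was 167 CPM in suffix 1 (127.1 to 215.5) and 270 CPM in suffix 2 (239.0 to 303.6). In cells with none it was 192 CPM (187.2 to 197.6) and 238 CPM (234.1 to 242.8), with overlapping intervals in each library. Cells with 1 division gene held 849.6, 624.3 and 2553 CPM of Csf1r in suffixes 1, 2 and 3, or 8.348, 7.191 and 16.94 UMIs per cell.

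Il34 was rare, with 546 UMIs in kept barcodes, of which 12 lay in suffix 1, 27 in suffix 2 and 507 in suffix 3. It was found in the cells that wrap vessels. Mural cell-like cells, a class that joins pericytes and vascular smooth muscle cells, held 175 CPM (146 to 208), with a UMI in 45.5% of 165 cells. The 23 fibroblast-like cells held 303 CPM (214 to 416), with a UMI in 60.9%. Every other class with at least 50 cells held at most 6.33 CPM. That value, in neuron-like cells, came from 5 UMIs in 1 barcode of 78247 UMIs.

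By library, mural cell-like cells held 192 CPM in suffix 3 (159.7 to 229.9, 149 cells), 45.4 CPM in suffix 2 (12.4 to 116) from 4 UMIs in 14 cells, and 2 UMIs in the 2 cells of suffix 1. Without suffix 3 the level was 61.3 CPM. The level of Il34 in mural cells thus rests on 1 library. The libraries also differed in the kinds of mural cell-like cells they held, as given below.

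Of the Il34 UMIs, 61.2% lay in mixed barcodes, 23.3% in mural cell-like and 6.96% in fibroblast-like cells. Thinned to 1000 UMIs per barcode, mural cell-like cells held 49.2%. The largest part of the mixed share came from 205 barcodes with endothelial and mural markers together, which held 201 Il34 UMIs and had a median of 12976 UMIs. A UMI was found in 50.7% of them. Counting every barcode that passed the mural or fibroblast gate, alone or with others, accounted for 90.5% of all Il34 UMIs. The 1211 barcodes that passed the endothelial gate but neither of these held 14 Il34 UMIs, and endothelial cell-like cells held 1.60 CPM (0.801 to 2.87).

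**Figure D5:**
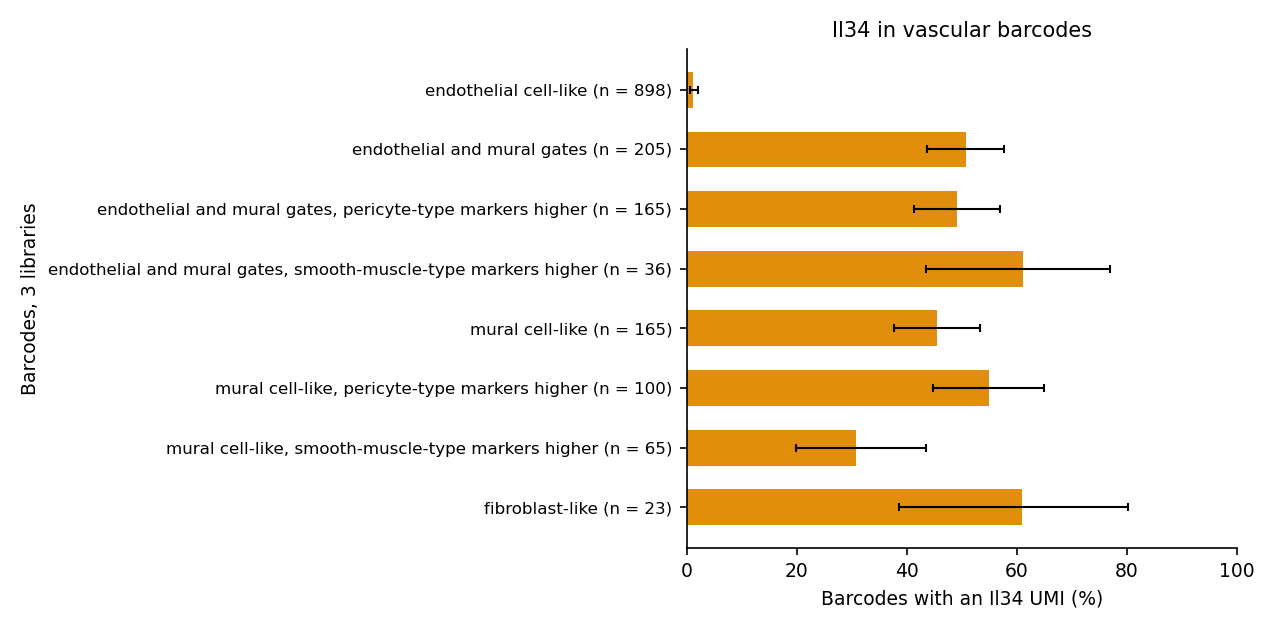
Share of barcodes with an Il34 UMI (%) in vascular barcodes of the 3 libraries, with exact Clopper-Pearson 95% intervals and the number of barcodes beside each name. Endothelial cell-like cells stand at 1.11%, while barcodes that passed the mural gate, alone or with the endothelial gate, and fibroblast-like cells stand between 30.8% and 61.1%.

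Mural cell-like cells with more UMIs of the pericyte markers Kcnj8, Abcc9 and Higd1b than of the smooth muscle markers Acta2 and Myh11 held 304 CPM of Il34 (247 to 371, 100 cells). Those with more smooth muscle UMIs held 73.6 CPM (49.6 to 105, 65 cells), with a UMI in 55.0% and 30.8% of the cells. The same split of the 205 barcodes with endothelial and mural markers gave 61.4 CPM (52.2 to 71.7) in 165 barcodes and 59.3 CPM (42.7 to 80.1) in 36, so the difference was not seen there. By library, 98 of the 149 mural cell-like cells of suffix 3 had more pericyte UMIs, at 296 CPM (239 to 363). The other 51 held 88.8 CPM (59.0 to 128). In suffix 2, 13 of the 14 cells had more smooth muscle UMIs and held 23.5 CPM (2.85 to 84.9) from 2 UMIs. The part of this makeup in the Il34 difference between libraries was not tested. The split was chosen after its values were seen.

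Brain parenchymal classes, and likewise NK cell-like and neutrophil-like cells, held almost no Il34. Astrocyte-like, oligodendrocyte precursor-like, committed oligodendrocyte precursor-like, NK cell-like and neutrophil-like cells had none, which allows up to 2.87, 1.40, 2.65, 1.90 and 2.65 CPM. Microglia-like cells held 6 UMIs in 10186 cells, oligodendrocyte-like cells 12 in 9267 and neuroblast-like cells 1 in 2017. Mature neurons, the brain source of Il34 known best, were few: the 54 neuron-like cells were led by Scg2 and the hypothalamic hormone gene Avp, and 5 of their 8 markers were found in 25% of the cells or more. Apart from the barcode named above, no neuron-like cell had an Il34 UMI.

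Other proteins reported to bind interleukin-34 had separate patterns. Ptprz1, a receptor phosphatase, was highest in oligodendrocyte precursor-like cells, at 2473 CPM, and next in astrocyte-like cells, at 1192 CPM. Sdc1, a heparan sulfate proteoglycan, reached 14.1 CPM in neuroblast-like cells. Trem2, a lipid-sensing receptor, was highest in microglia-like cells, at 3149 CPM, and was 3108, 3363 and 2302 CPM in suffixes 1, 2 and 3, below both other libraries in suffix 3 as Csf1 was.

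Of the transcription factors of Csf1r-expressing cells, Spi1, Cebpa, Runx1 and Irf8 were each higher in the microglia-like cells of suffix 3 than in both other libraries, beside 73.6% of all genes. Cebpa was 95.6, 103 and 202 CPM. Spi1, which encodes PU.1, was 247, 274 and 365 CPM. Across classes, Cebpa was highest in microglia-like cells, Runx1 in border-associated macrophage-like cells, Spi1 in neutrophil-like cells at 651 CPM and Irf8 in NK cell-like cells at 809 CPM.

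Of 18 genes of signalling downstream of the receptor, 17 had at least 10 CPM in microglia-like cells. Suffix 3 was above both other libraries in 14 of them, among them Inpp5d at 116, 95.1 and 222 CPM, which encodes the lipid phosphatase SHIP1. It was below both in 2, Tyrobp and Fyn. Tyrobp, the adaptor that Trem2 and Csf1r signalling share, was 4654, 5237 and 2425 CPM. Socs3, a feedback inhibitor of cytokine signalling, was 229, 279 and 563 CPM. Over all 40 genes of the pathway lists, 30 reached 10 CPM, and suffix 3 was above both libraries in 24 and below both in 4, beside 73.6% and 20.8% of all genes. Adam17, the protease that sheds membrane-bound colony-stimulating factor 1, was 62.6, 56.4 and 64.3 CPM.

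The genes whose levels ran most like each member were sought over the 14 classes with at least 50 cells, among 13178 genes, by Pearson correlation of log2(CPM + 10). The members and the markers of the classes were left out of this search, so they could not be among the leading genes. The classes share libraries and the correlation is a description. For Csf1r these were the chemokine gene Ccl9 (r = 0.992), the nucleotide receptor gene P2ry6 (r = 0.990), the inhibitory Fc receptor gene Fcgr2b (r = 0.989), the thromboxane synthase gene Tbxas1 (r = 0.989) and Gm47754 (r = 0.989). For Csf1 the correlations were lower, with the potassium channel gene Kcnj2 (r = 0.912), Gdpd3 (r = 0.881), Nlrp1b (r = 0.869), Ly6i (r = 0.868) and Tpd52 (r = 0.865), each highest in neutrophil-like cells. For Il34 they were Slc38a11 (r = 0.997), Nts (r = 0.992), Nrip2 (r = 0.991), Rem1 (r = 0.988) and Twist1 (r = 0.986), each highest in mural cell-like cells. Some of these genes were low beside the added 10 CPM even in their highest class. Gdpd3, Nlrp1b and Ly6i reached 22.1, 10.6 and 16.8 CPM, and Gm47754 reached 6.40 CPM. With Spearman correlation 1, 0 and 0 of the 5 genes of Csf1r, Csf1 and Il34 stayed among the leading 5.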

How the data were processed

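Raw UMI counts per gene and barcode (unit: counts) were deposited by the authors as 1 matrix of 3 libraries prepared with a 3′ v3 kit. Per the methods and the submitters' processing notes, reads were aligned to mm10 with STAR in Cell Ranger 3.1.0 and libraries were down-sampled to even depth. Their later steps in Seurat 3.1.1, batch correction included, are not in these counts. Classes, gates and CPM were computed here with Python 3.11.15, NumPy 2.4.6, SciPy 1.17.1 and pandas 2.3.3. Barcodes with fewer than 1000 UMIs (2862) or over 30% mitochondrial UMIs (1544) were left out. Doublets were called with Scrublet (scanpy 1.11.5), 4.89% of kept barcodes, and left out in an alternative only. Scripts were tested on simulated cells. GENCODE M21 (GRCm38) gave coordinates, and 99.6% of gene identifiers matched it. The members and lists were chosen with earlier results of these data known. Named genes were the members, the genes of the pathway, activation, division and stress lists, the markers, the C1q genes, and the 5 genes most like each member among those with at least 300 UMIs. Some genes of these lists are not reported here. No test was run, since cells are not replicates. Precision is limited by UMIs per class.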

Additional observations from a re-analysis of the deposited data

Results flagged for a closer look

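Barcodes left out by the filter on depth and mitochondrial share also held UMIs of the members, above the 3 UMIs that a count of 0 allows. There were 1207 Csf1r UMIs in 706 of these barcodes, 333 Csf1 UMIs in 296 and 8 Il34 UMIs in 5. No control for this signal was at hand.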

How the results depend on the processing

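Alternatives moved sizes, and both ratios between suffixes stayed above 1 in each alternative that gave them. Equal library weights gave no ratio. Pooled values were 1014 CPM for Csf1r and 198 CPM for Csf1 in microglia-like cells, which held 81.5% and 63.2% of the UMIs of these genes, and mural cell-like cells held 23.3% of Il34. Microglia-like Csf1r in suffix 3 was 2.73 times the mean of suffixes 1 and 2, and Csf1 in those was 6.37 times that of suffix 3. Without a minimum of UMIs the Csf1r share was 81.1%. With a minimum of 2000 UMIs Csf1r was 1007 CPM and the shares of Csf1r and Csf1 81.9% and 63.8%. With a mitochondrial limit of 10% these shares were 82.2% and 64.7%. With barcodes beyond 2 SD of the mean left out, Csf1r was 1141 and Csf1 177.9 CPM, the shares of Csf1r, Csf1 and Il34 84.4%, 62.6% and 34.2%, and the Csf1r ratio 2.44. A gate of 5 markers gave 1061 and 191.2 CPM, shares of 81.3% and 58.0%, and a Csf1r ratio of 2.65. A gate of 3 gave 973 and 205 CPM and shares of 76.4%, 63.9% and 19.2%. With mixed barcodes given to their best class these were 1025 and 193 CPM, 89.0%, 66.3% and 27.1%, with a ratio of 2.64, and Csf1r in oligodendrocyte-like cells became 47.9 CPM. Without called doublets the shares were 88.4% and 67.8%. Thinned to 1000 UMIs, levels were 1249 and 159.8 CPM, the shares of Csf1 and Il34 52.6% and 49.2%, and the ratios 2.15 and 5.24. Without mitochondrial UMIs in the denominator levels were 1041 and 203 CPM. With equal library weights they were 1345 and 154.7 CPM, with shares of Csf1 and Il34 of 49.4% and 18.4%. The causes were not tested.

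Leaving out 1 library at a time gave 824 to 1351 CPM for Csf1r, 145.8 to 222.0 CPM for Csf1 and 61.3 to 193 CPM for Il34. The shares ran from 78.9% to 85.8%, from 48.4% to 70.05% and from 15.4% to 23.7%, and the ratios from 2.43 to 3.104 and from 5.66 to 7.09. Of the 5 genes most like Csf1r, Csf1 and Il34, a pseudocount of 1 kept 1, 2 and 3, and Spearman correlation 1, 0 and 0. Cells of 5000 to 10000 UMIs, a range added after seeing the data, gave activation ratios of 0.486 and 0.457 for Csf1r and 4.92 for Csf1 in suffix 2. Of the values that answer a comparison, 47 moved by less than their interval (for counts of genes, 1.5 times) and 68 by more.

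No paired analysis was possible because each condition had 1 library, suffixes were not tied to conditions and no test was run. Il34 is limited by its 12 and 27 UMIs in suffixes 1 and 2, which held 2 and 14 mural cell-like cells. Gated classes are incomplete, and free RNA and doublets were not removed from the values reported.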

Other observations

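Relatives of the receptor and its ligands were spread over other classes. Of the receptors of the same kinase family, Kit reached 25.2 CPM in oligodendrocyte precursor-like cells, and Pdgfra and Pdgfrb were themselves markers of oligodendrocyte precursor-like and mural cell-like cells. The ligand of Kit, Kitl, was highest in endothelial cell-like cells, at 357 CPM, and the ligand of Flt3, Flt3l, in T cell-like cells, at 30.2 CPM. Pdgfb was 314 CPM in endothelial cell-like cells and 96.4 CPM in microglia-like cells, where it was 79.3, 83.6 and 196 CPM in suffixes 1, 2 and 3.

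Of the other colony-stimulating factors, Csf2 was highest in T cell-like cells, at 18.2 CPM, and Csf3 in endothelial cell-like cells, at 27.1 CPM. The receptor of the latter, Csf3r, was highest in neutrophil-like cells, at 1155 CPM. Csf2ra and Csf2rb, the subunits of the receptor of Csf2, were also highest in neutrophil-like cells, at 224 and 221 CPM. In microglia-like cells Csf2ra was 118, 134 and 68.6 CPM in suffixes 1, 2 and 3, the fourth pathway gene below both other libraries in suffix 3 besides Trem2, Tyrobp and Fyn.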
